A study of Notophthalmus viridescens with 3 samples.

Results

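The comparison described here sets the miRNAs of a newt heart at 21 days post injury (dpi) against those of a newt heart at 7 dpi, the later and the earlier of the regeneration times in the study. It uses 2 of the 3 arrays of the series, and the third, from an uninjured heart, serves to say which 7 dpi differences stood nearer to the resting state at 21 dpi. All samples are total RNA from whole hearts of adult Notophthalmus viridescens, the red-spotted newt, a salamander that regrows injured heart muscle. The groups are 21 dpi, 7 dpi and uninjured, with 1 sample and 1 array each, and 0.5 µg of RNA entered each assay. The kind of injury is given in the labels only by reference to an earlier study, the labels give neither the age beyond adult nor the number of hearts in a sample, and there was no sham-operated heart. With 1 sample per group no significance test is possible, no p-value is given, and every difference describes these samples. Each ± on a log2 difference combines the standard errors of the 3 spots on either array and holds no spread between animals.

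MicroRNAs are short RNAs that lower the output of target mRNAs, which they recognise mainly through the seed, bases 2 to 8 from their 5′ end. Members of a family mostly share a seed, or nearly so, and so can share targets, and different families mark different cells of a heart. In vertebrates miR-1, miR-133 and the miRNAs carried in myosin genes, miR-208 and miR-499, are made in striated muscle, miR-143 and miR-145 in smooth muscle, miR-126 in endothelium, and miR-142, miR-150, miR-155 and miR-223 in leukocytes.

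The target sequences below are those of the probes on which this comparison turns, with the seed in capitals. The muscle miRNAs of the miR-1 family are shown together because their probes are nearly the same and their values are not.
miR-1: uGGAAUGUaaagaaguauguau
miR-1a: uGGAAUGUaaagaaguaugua
miR-1b: uGGAAUGUuaagaaguaugua
The miR-125a and miR-499 pairs are shown because 1 name of each pair passed 2-fold and the other did not.
miR-125a: uCCCUGAGacccuuaaccugug
miR-125a-5p: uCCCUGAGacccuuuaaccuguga
miR-499: uUAAGACUugcagugauguuua
miR-499-5p: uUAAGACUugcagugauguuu
The smooth-muscle miRNA miR-145 is shown as a further name past 2-fold, and the injury-associated miR-21 because it moved away from the uninjured level at 21 dpi, though it stayed below 2-fold between these times.
miR-145: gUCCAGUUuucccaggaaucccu
miR-21: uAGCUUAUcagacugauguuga
The targets of miR-466, miR-574-3p, miR-762 and miR-1469 stand for the lower side, and their seeds all differ.
miR-466: aUACACAUacacgcaacacacau
miR-574-3p: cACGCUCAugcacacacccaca
miR-762: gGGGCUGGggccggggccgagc
miR-1469: cUCGGCGCggggcgcgggcucc

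Each array carried 1365 miRNA probes designed for human, zebrafish and frog miRNAs, in 3 spots each, which were collapsed to 1242 names. Detection required a median spot brighter than 95% of the empty spots on the same array. At 21 dpi 147 names were detected and at 7 dpi 184, of which 138 were detected on both arrays, 9 at 21 dpi only and 46 at 7 dpi only. The detection minimum was an intensity of 103 at 21 dpi and 77.5 at 7 dpi, so the bar was higher on the array with fewer detected names. The 193 names detected on at least 1 of these arrays form the base of all counts and ranks below.

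Most miRNAs were brighter on the 21 dpi array. Over the 138 shared names the median brightness above empty spots was 536 at 21 dpi and 146 at 7 dpi, a median log2 ratio of 1.73, and 130 of the 138 names were brighter at 21 dpi. Control probes were brighter by less, with a median log2 ratio of 0.48 over 14 probes for 5S rRNA and of 0.89 over 12 perfectly matched spike-in probes. All of these controls but the spike-in Ctr05-3P exceeded the median shared name at 7 dpi. These medians thus do not compare probes of like brightness. Over the 4 spike-in probes with mismatches that were detected on all 3 arrays the ratio was 2.53, with a range of 1.68 to 2.96. The higher detection minimum at 21 dpi favours dim probes that gained light there, and the other mismatch probes were left out. One of these, a3-PUC2MM-20B, read 7.99 at 7 dpi and 9.82 at 21 dpi. Matched probes ranged from 0.38 to 1.38, with the highest ratio in the dimmest. At like brightness, the mismatch probe PUC2MM, at 1438 at 7 dpi, had 1.68, and the matched Ctr10-3P, at 1586, had 1.15. The parts of mismatch and of brightness in this gap were not tested. The part of the gap in the differences of newt miRNAs read by probes of other species was not tested either. On the background-corrected log2 scale the median difference of the 138 names was 1.41, and 0.14 after quantile normalization. Every normalized log2 difference below is relative to such a shift, which was not the same for every name. For miR-762 the difference was -0.20 with no normalization and -1.80 after it, and for miR-122 -1.16 and -1.75.

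Ranks within an array do not depend on its overall brightness. At both times the top rank belonged to miR-1826, a name since withdrawn as a fragment of ribosomal RNA, and let-7f held rank 4. The muscle miRNA miR-1 stood at rank 2 at 21 dpi and 3 at 7 dpi, and let-7a at rank 3 at 21 dpi and 2 at 7 dpi. At 21 dpi let-7a had 1 dim spot (2652, against 10790 and 10965), and its place below miR-1 rests on that spot. Of the 20 brightest names at 21 dpi, 18 were among the 20 brightest at 7 dpi, and of the top 50 it was 48. The names that entered the top 20 at 21 dpi were miR-499-5p, at rank 8 at 21 dpi against 21 at 7 dpi, and miR-125c, at 16 against 28, each with dim spots at 7 dpi. Those that left it were miR-466 and miR-133a, and miR-133a lost only 3 places, to rank 22 at 21 dpi against 19 at 7 dpi. Across the 138 shared names, which are not independent replicates, Spearman's rho of the signals was 0.90. The median name moved 14 places. Of the 193 names, 5.7% moved at least 50 places, 2 towards the bright end at 21 dpi and 9 towards the dim end.

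The farthest moves were downward and belonged to miR-466, at rank 120 at 21 dpi against 18 at 7 dpi, and miR-187, at 181 against 80. The liver miRNA miR-122 stood at rank 182 at 21 dpi against 102 at 7 dpi, and miR-574-3p at 117 against 58. The 2 upward moves were those of miR-3167, at rank 132 at 21 dpi against 192 at 7 dpi, and the leukocyte miRNA miR-142-3p, at 134 against 190. Neither was detected at 7 dpi.

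**Figure D1:**
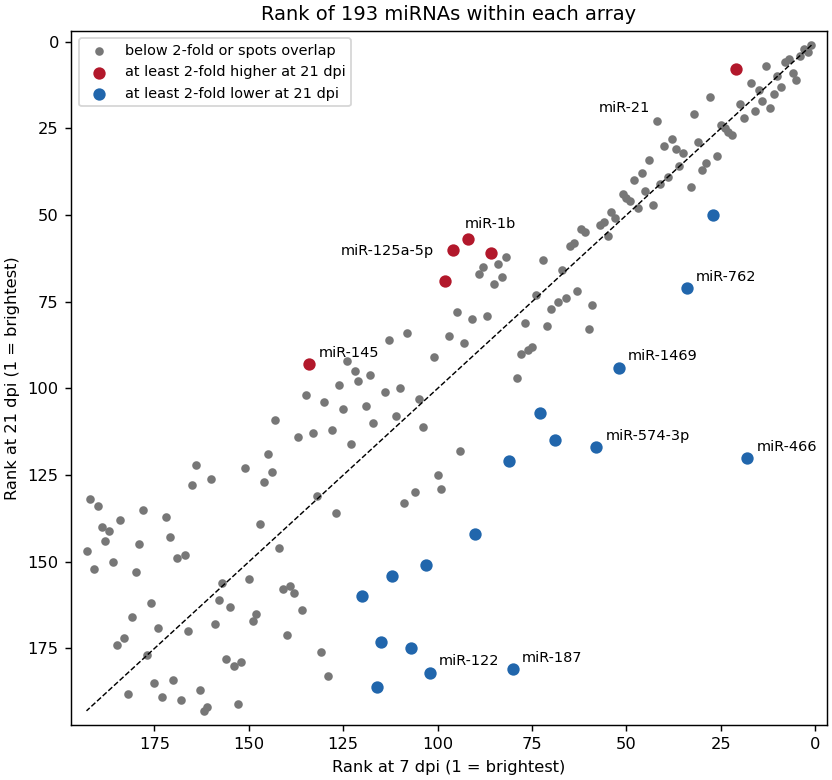
Rank of each of the 193 miRNAs at 21 dpi (vertical axis) against its rank at 7 dpi (horizontal axis), with rank 1 the brightest and both axes running from dim to bright. The 6 miRNAs on the higher side at 21 dpi (red) lie above the dashed line of equal rank, the 17 at least 2-fold lower (blue) lie below it, and the brightest names (top right) lie close to it.

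After normalization, 6 of the 193 names (3.11%) exceeded their 7 dpi level by 2-fold or more at 21 dpi with no overlap between the spots of the arrays, and 17 (8.81%) lay 2-fold or more below it. The split depends on the scaling. It was 100 higher and 4 lower with no normalization, 66 and 11 scaled to 5S rRNA, 20 and 22 with the empty-spot median subtracted, 1 and 18 with cyclic loess, 1 and 63 scaled to the median of the shared miRNAs, and 2 and 24 with quantiles taken over the names that also have a fish or frog probe. The direction of the 6 higher names was kept under every one of these scalings, and so was that of the 17 lower ones except for miR-1469 and miR-3196, which stood at 0.086 and 0.35 with no normalization.

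The 6 higher miRNAs were miR-1b, miR-145, miR-125a-5p, miR-107b, miR-92a and miR-499-5p, and all of them have a fish or frog probe of the same number. The heart muscle miRNA miR-1b read 719, 759 and 812 above the empty spots at 21 dpi, against 94.7, 102 and 103 at 7 dpi. Its spots were tight on both arrays and far apart, the normalized difference was 1.18 ± 0.05, and it stood at rank 57 at 21 dpi against 92 at 7 dpi. Its relatives differed by less. miR-1a read 5616, 5729 and 6138 at 21 dpi against 1106, 1206 and 1515 at 7 dpi, a difference of 0.40 ± 0.13. miR-1, the brightest, read 7805, 8330 and 8635 at 21 dpi against 3852, 3863 and 3997 at 7 dpi, a difference of 0.25 ± 0.05. The sequences of miR-1 and miR-1b differ by A9U, counted from the 5′ end with the base of miR-1 first, and by the last base of miR-1, which is also all that sets miR-1 apart from miR-1a. Such probes can capture each other's RNA, so RNA of its relatives may add to what the miR-1b probe read. The miR-1b difference was under 2-fold with cyclic loess, at 0.91, scaled to the median of the shared miRNAs, at 0.82, and with quantiles over names that have a fish or frog probe, at 0.92.

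The smooth-muscle miRNA miR-145 read 242, 271 and 313 at 21 dpi, against 25.5, 26.7 and 41.0 at 7 dpi. All 3 spots were brighter at 21 dpi, by a normalized difference of 1.12 ± 0.11, and the rank was 93 at 21 dpi against 134 at 7 dpi. The zebrafish probe of miR-145 gave 0.86 ± 0.11 and the frog probe 0.39 ± 0.50, with 1 dim frog spot at 21 dpi. The miR-145 difference was 0.76 with cyclic loess, 0.84 scaled to spike-in probes and 0.34 scaled to the median of the shared miRNAs. Its clustered partner miR-143 read 70.6, 71.0 and 101 at 21 dpi against 11.4, 12.6 and 13.5 at 7 dpi. Its spots did not overlap either, and the difference of 0.58 ± 0.09 stayed below 2-fold.

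The miRNA miR-125a-5p, of a family linked with let-7 clusters, read 581, 708 and 719 at 21 dpi, against 80.8, 92.0 and 108 at 7 dpi, a difference of 1.17 ± 0.11. It was below 2-fold with cyclic loess, at 0.89, scaled to the median of the shared miRNAs, at 0.71, and in the authors' deposited values, at 0.85. The shorter frog miR-125a, which is brighter and has the same seed, went the other way at -0.48 ± 0.12, with 5022, 5958 and 6615 at 21 dpi against 2469, 2480 and 2613 at 7 dpi.

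The other 3 higher values each rest on 1 dim spot at 7 dpi. The myosin-gene miRNA miR-499-5p read 5749, 6169 and 6317 at 21 dpi against 41.7, 1464 and 1620 at 7 dpi, and its difference of 1.72 ± 1.31 became 0.37 with the median of spots. Its near copy miR-499, 1 base longer at the 3′ end, had no such spot and stood at 0.34 ± 0.06. For miR-92a, of the miR-17/miR-92 clusters, the difference was 1.17 ± 0.52 and 0.27 with the median of spots, and for miR-107b, of the miR-103/miR-107 family, 1.02 ± 0.53 and 0.10. Such dim spots, more than 3 times below the median spot, were found for 14 detected names at 21 dpi and for 11 at 7 dpi.

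**Figure D2:**
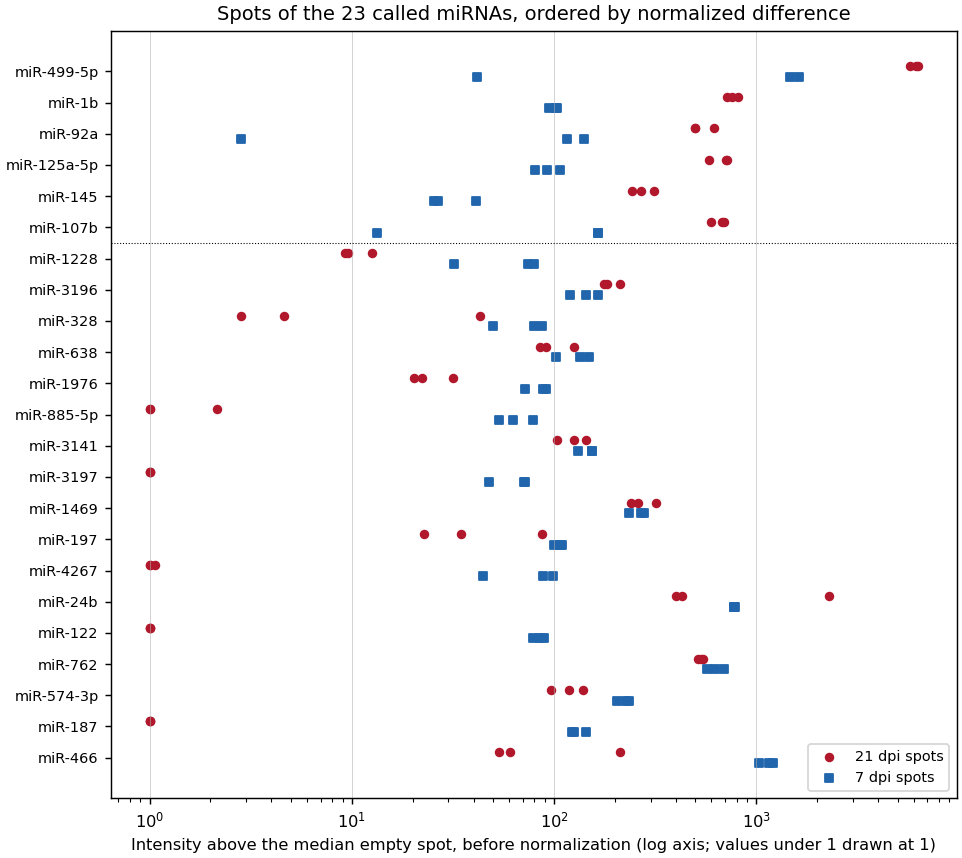
The 3 replicate spots at 21 dpi (red circles) and at 7 dpi (blue squares) of the 23 miRNAs that differed at least 2-fold, as intensity above the median empty spot before normalization, on a log axis. The miRNAs above the dotted line were higher at 21 dpi by the normalized difference and those below it lower. For miR-1469 the spots of the arrays overlap before normalization, as they do for miR-24b, and for miR-3196 they are brighter at 21 dpi.

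On the lower side miR-466 stood furthest apart. It read 53.3, 60.8 and 213 at 21 dpi, against 1032, 1151 and 1211 at 7 dpi, a difference of -4.27 ± 0.39. It was dimmer at 21 dpi even before normalization, as were 49 of the 193 names. With no normalization it stood at -2.83, and in the authors' deposited values at -5.46. The next in size was miR-187, which read -6.89, -5.64 and -3.54 at 21 dpi, at the level of the empty spots, against 123, 126 and 143 at 7 dpi. With no detection at 21 dpi, the 7 dpi level was at least 4.01-fold higher. Its human and frog probes gave -1.38 ± 0.07 and -1.55 ± 0.60. The liver miRNA miR-122 read -6.95, -6.22 and -3.23 at 21 dpi against 78.3, 85.2 and 89.3 at 7 dpi, a 7 dpi level at least 2.60-fold higher. Its frog probe gave -1.10 ± 0.13.

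Among the lower miRNAs detected at both times, miR-574-3p read 96.1, 118 and 140 at 21 dpi against 204, 227 and 236 at 7 dpi, a difference of -1.89 ± 0.11. miR-762 read 517, 534 and 543 at 21 dpi against 573, 628 and 694 at 7 dpi, a difference of -1.80 ± 0.07. Their spots did not overlap before normalization either, with the 7 dpi spots higher. miR-1469 read 239, 261 and 318 at 21 dpi against 235, 269 and 277 at 7 dpi, so its difference of -1.45 ± 0.11 says that it did not gain light where most names did. miR-3196 was brighter at 21 dpi before normalization and stood at -1.03 ± 0.11 after it. The frog probe of miR-24b, of the miR-23/miR-27/miR-24 cluster family, stood at -1.66 ± 0.76 with uneven spots at 21 dpi, of 399, 432 and 2278, against 774, 777 and 784 at 7 dpi. The human miR-24 stood at -0.36 ± 0.05.

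The remaining lower names were miR-197 at -1.47 ± 0.23, miR-3141 at -1.37 ± 0.10 and miR-638 at -1.22 ± 0.15, and names not detected at 21 dpi. Of the latter kind miR-1976 had a 7 dpi level at least 2.44-fold higher, miR-4267 2.33-fold, miR-328 2.19-fold, miR-885-5p 2.07-fold, miR-3197 2.02-fold and miR-1228 1.83-fold. All 17 lower names lost rank, and 14 of them were dimmer at 21 dpi before normalization, against 49 of the 193 names.

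The lower names shared features of their probes. Of the 17, 14 carry a number that has a human probe only, against 59 of the 193 names and none of the 6 higher ones. Their median target GC content was 68.2%, against 47.8% over the 193 names and 48.8% over the higher ones. Over all names, the median difference was -0.43 for the 59 human-only names and 0.17 for the 131 whose number has a human and a fish or frog probe. Over 4 ranges of GC content the medians were 0.27 below 40%, 0.12 from 40% to 50%, -0.13 from 50% to 60% and -0.46 at 60% and over. Against the uninjured heart, the names with 60% GC or more stood at 0.12 at 21 dpi and at 0.53 at 7 dpi. Whether GC content, mismatch to the newt RNA or the newt heart itself set these values was not tested. Of the 17 lower names, 10 had 60% GC or more and 5 lay from 50% to 60%. miR-122, at 45.5% GC, and miR-466, at 39.1%, lie outside the GC pattern.

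**Figure D3:**
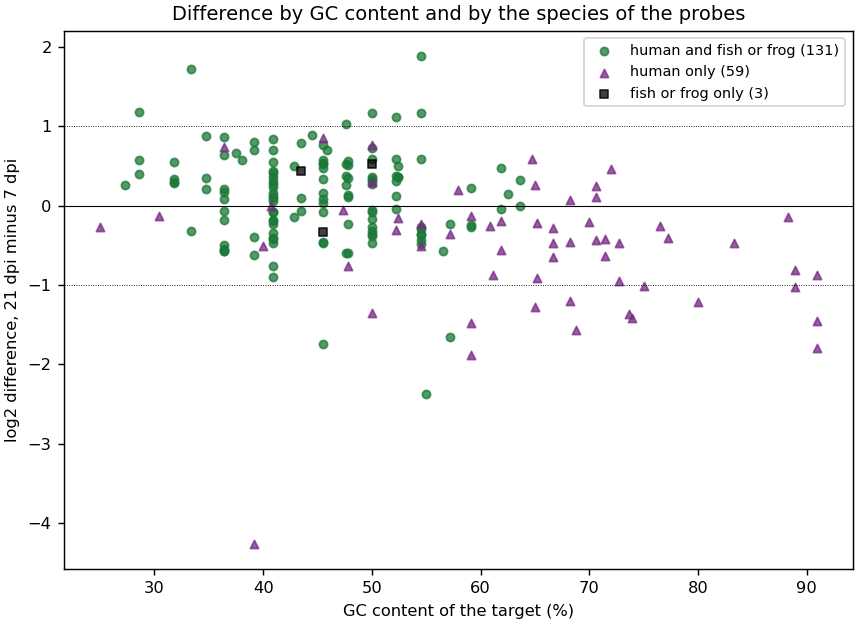
Normalized log2 difference, 21 dpi minus 7 dpi (vertical axis), against the GC content of the target in percent (horizontal axis) for the 193 miRNAs, with the dotted lines at 2-fold. Names whose number has a human probe only (purple triangles, 59) fill the range above 65% GC and lie mostly below 0, while those with a fish or frog probe as well (green circles, 131) lie around 0, and miR-466 is the lone point below -4.

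Families were compared by the sum of their signal as a share of the signal of all 193 names on the same array. A uniform scaling of an array leaves such a share unchanged, but a gain that differs between probes does not. The 5S rRNA control hsa-5S-b5, at 35676 at 7 dpi, had a log2 ratio of 0.26 between these arrays. The matched spike-ins PUC2PM-20B, at 6736, and Ctr05-3P, at 86.0, had 1.33 and 1.38. The part of such unequal gains in the shares was not tested. A single name weighs on every share: miR-1826 read 38774, 41353 and 42976 at 21 dpi against 36163, 37518 and 37584 at 7 dpi, so it hardly gained light while most names did. The names given to fragments of other RNAs, miR-1826 among them, took 21.0% of the signal at 21 dpi and 37.9% at 7 dpi. Of 45 families with a detected member, 17 (37.8%) had a share at least 1.5-fold higher at 21 dpi, by more than 2 standard errors, and 2 (4.44%) a lower one. Without miR-1826 in the sum these were 7 and 1, all of them among the 17 and the 2, and the fragment names stood at 0.15 on the log2 scale. The 7 families were miR-145, miR-143, miR-21, miR-181, miR-208/miR-499, miR-148/miR-152 and miR-17/miR-20/miR-93/miR-106, and the lower one was miR-223. Of the 17 higher families 4 passed in the authors' deposited values, by fold alone: miR-145, miR-143, miR-21 and miR-181.

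The injury-associated miR-21 took 1.23% ± 0.04 of the signal at 21 dpi (standard error of spots) and 0.473% ± 0.025 at 7 dpi. Its log2 ratio of shares was 1.37 ± 0.09, and 1.02 without miR-1826. The miR-17/miR-20/miR-93/miR-106 family, whose members in mammals are linked with cell proliferation, took 1.42% at 21 dpi and 0.706% at 7 dpi. By normalized difference 8 of its 10 detected names were positive and none reached 2-fold. Their median was 0.58, against 0.17 over the 131 names whose number has a human and a fish or frog probe. Its near-identical members can share signal, so they are not separate readings. Its ratio was 1.01 ± 0.07, and 0.66 without miR-1826. Within it miR-106a stood at 0.79 ± 0.10 and miR-20a at 0.70 ± 0.12, while miR-17 and miR-93 stood at -0.23 ± 0.64 and -0.05 ± 0.72 with spots that part. The myosin-gene family miR-208/miR-499 took 5.71% at 21 dpi and 2.78% at 7 dpi, a ratio of 1.04 ± 0.25. With the median of spots, which sets aside the dim spot of miR-499-5p, it was 0.84, and miR-208b within it stood at 0.28 ± 0.10.

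The miR-181 family, found in lymphoid and other cells, took 0.312% at 21 dpi and 0.144% at 7 dpi. All 3 names were positive, from 0.34 for miR-181a to 0.72 for miR-181b, against the median of 0.17 over those 131 names. The miR-148/miR-152 family took 0.269% at 21 dpi and 0.132% at 7 dpi, with miR-148b at 0.70 ± 0.08 and miR-148a at 0.43 ± 0.09. The smooth-muscle pair together took 0.150% at 21 dpi and 0.0414% at 7 dpi. The log2 ratio of shares was 1.97 ± 0.26 for miR-145 and 1.52 ± 0.19 for miR-143. The miR-143 sum at 7 dpi was only 12.5, close to the empty spots. With detection set at 99% of the empty spots, miR-143 was not among the 16 higher families.

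The most abundant families held their places. After the fragment names came let-7 with 13.6% at 21 dpi and 13.1% at 7 dpi, the miR-1 family with 6.24% at 21 dpi and 5.02% at 7 dpi, and miR-125 with 6.20% at 21 dpi and 4.67% at 7 dpi, on ranks 2, 3 and 4 at both times. The ratio was 0.05 ± 0.17 for let-7 and -0.30 without miR-1826, 0.31 ± 0.05 for miR-1 and -0.04, and 0.41 ± 0.19 for miR-125 and 0.05. The striated-muscle family miR-133 had a ratio of shares of 0.33 ± 0.04, and of -0.03 without miR-1826. By normalized difference 3 of its 4 names were negative and none positive, with a median of -0.22. For let-7, 3 names were positive and 5 negative, for miR-125 2 and 2, and for miR-1 all 3 were positive. Within striated muscle, the miR-208/miR-499 share thus passed 1.5-fold with miR-1826 in the sum, and the miR-1 and miR-133 shares did not. Without miR-1826 its ratio of 0.69 rests on the dim 7 dpi spot of miR-499-5p, since the median of spots gave 0.48, below 1.5-fold, in an alternative chosen after seeing the data. In the authors' deposited values the miR-208/miR-499 ratio with miR-1826 in the sum was 0.58, just below 1.5-fold, against 1.04 here. No test of the difference between these families was possible.

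**Figure D4:**
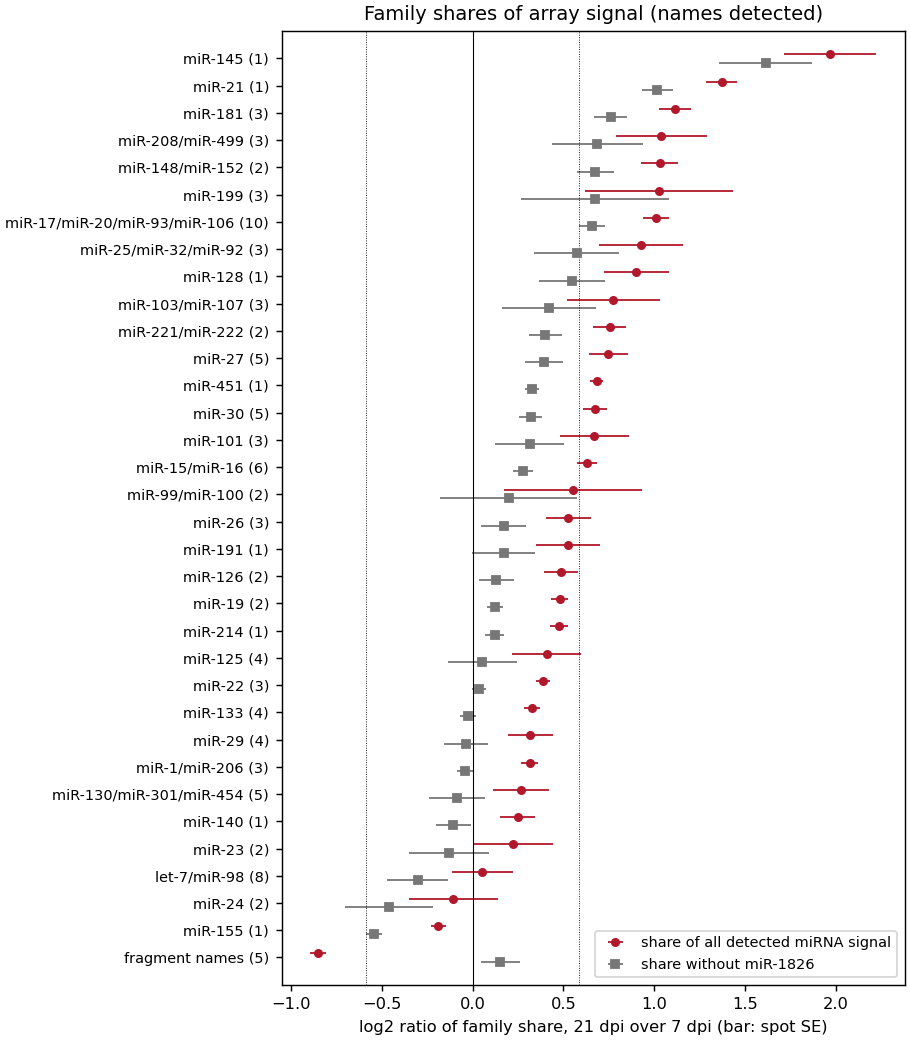
Log2 ratio of family share, 21 dpi over 7 dpi, for families with at least 0.1% of the signal on either array, with the number of detected names in brackets and bars for the standard error of the spots. Red circles are shares of all detected miRNA signal and grey squares shares without miR-1826. Leaving out miR-1826 moves nearly all families down by a like amount, and miR-145 and miR-21 lie highest on both scales.

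The cell type lists show whole-heart RNA with muscle foremost. In a whole heart, fewer cells of a type and less of its RNA per cell cannot be told apart. Of 8 striated-muscle names 6 were detected at both times, with 10.7% of the signal at 21 dpi and 7.87% at 7 dpi. Every share of such a list has miR-1826 in the sum and was not computed without it. Without it the log2 ratios of the family shares were -0.04 for miR-1, -0.03 for miR-133 and 0.69 for miR-208/miR-499. The striated-muscle list leaves out miR-499-5p, miR-133b, miR-133c and miR-133d. The names miR-208 and miR-208a were not detected, and neither was any of the 3 neural names. Of 5 leukocyte names 4 were detected at 21 dpi and 3 at 7 dpi, and their shares were 0.255% and 0.292%. Within that list the names diverged. miR-223, of myeloid cells, read 114, 116 and 120 at 21 dpi against 89.0, 95.5 and 107 at 7 dpi, and stood at -0.76 ± 0.05 after normalization. Its frog probe, close to the empty spots and detected at 7 dpi only, gave -0.13 ± 0.04. miR-155 read 248, 262 and 270 at 21 dpi against 128, 130 and 135 at 7 dpi, and stood at -0.62 ± 0.03, with its frog probe at -0.66 ± 0.07. miR-150 stood at -0.27. miR-142-3p was detected at 21 dpi only, at 52.6, 59.6 and 75.1 against -5.91, -1.24 and -0.81 at 7 dpi, at least 1.55-fold higher. Of 2 erythroid names, miR-451 took 1.70% at 21 dpi and 1.06% at 7 dpi, and stood at 0.08 ± 0.04 after normalization. The other, miR-144, was detected at 21 dpi but not at 7 dpi, with a signal of only 41.5 at 21 dpi, and stood at 0.58. Of 2 endothelial names, miR-126 stood at -0.08 ± 0.09 with overlapping spots, and miR-126b, detected at 21 dpi only, stood at 0.76. Of 10 epithelial names 1 was detected at 21 dpi and 4 at 7 dpi, with the higher detection minimum at 21 dpi. The summed signal of the 10 was 52.4 at 21 dpi and 40.8 at 7 dpi, close to the empty spots on both arrays. The share of those detected at either time was 0.0190% at 21 dpi and 0.0364% at 7 dpi, so a change in epithelial names cannot be read.

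Which 7 dpi differences stood nearer to the uninjured heart at 21 dpi was read from the names that differed at least 2-fold at 7 dpi. These were 18 higher (8.49% of 212 names detected on either of those arrays) and 4 lower (1.89%). At 21 dpi 21 of these 22 were nearer to the uninjured level than at 7 dpi, 19 were within 2-fold of it and 14 within 0.5 on the log2 scale. These comparisons share the 7 dpi array and the uninjured array. Names chosen because the 7 dpi array set them apart would in part come back on any further array, so the count is a description of these arrays and not of a return in time.

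Among the higher ones, differences from the resting heart at 21 dpi and at 7 dpi were 0.00 ± 0.13 and 1.89 ± 0.10 for miR-574-3p, 0.26 ± 0.13 and 2.06 ± 0.15 for miR-762, and 0.21 ± 0.15 and 1.66 ± 0.12 for miR-1469. miR-187 stood at -0.02 ± 0.04 at 21 dpi and 2.35 ± 0.06 at 7 dpi, and miR-122 at -0.11 ± 0.04 and 1.64 ± 0.04, and both were below detection in the uninjured heart as at 21 dpi. miR-466 went past the resting level, to -0.94 ± 0.38 at 21 dpi against 3.33 ± 0.07 at 7 dpi. The leukocyte miRNAs came part of the way, miR-155 to 0.89 ± 0.39 at 21 dpi against 1.51 ± 0.38 at 7 dpi, and miR-223 to 0.72 ± 0.08 against 1.48 ± 0.09. The miR-155 values against the uninjured heart include 1 dim uninjured spot, and the frog probe gave 0.36 at 21 dpi and 1.02 at 7 dpi. The frog probe of miR-223, close to the empty spots, gave -0.05 at 21 dpi and 0.09 at 7 dpi. miR-1280, a name given to a tRNA fragment, stayed at 0.95 ± 0.11 at 21 dpi against 1.20 ± 0.03 at 7 dpi.

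The 1 name that moved further away was miR-21. It read 2744, 3000 and 3001 at 21 dpi, 449, 510 and 535 at 7 dpi, and 243, 268 and 336 in the uninjured heart. The groups did not overlap, and the difference from the uninjured heart was 2.62 ± 0.12 at 21 dpi and 1.76 ± 0.13 at 7 dpi. It ranked 81 without injury, 42 at 7 dpi and 23 at 21 dpi. Between the injured hearts the difference was 0.87 ± 0.08, below 2-fold. The zebrafish probe of miR-21 was below detection on all 3 arrays.

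Of the 4 names lower at 7 dpi, miR-139 came back furthest, to -0.31 ± 0.08 at 21 dpi against -1.19 ± 0.06 at 7 dpi. miR-1b came about midway, to -1.04 ± 0.08 against -2.22 ± 0.07, with uninjured spots of 1332, 1452 and 1591. miR-184 stayed at -1.13 ± 0.10 at 21 dpi against -1.28 ± 0.08 at 7 dpi, below detection at both times, and miR-16b at -0.95 ± 0.09 against -1.11 ± 0.08. The frog probe of miR-16b, a family that restrains the cell cycle, read 525, 537 and 556 at 21 dpi against 49.5, 63.2 and 70.8 at 7 dpi, and gave -0.34 at 21 dpi against -1.74 at 7 dpi. The probes of miR-16b thus disagree on how much came back.

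What family shares show depends on whether miR-1826 is in the sum. The counts cover only families with a summed signal above 0 on all 3 arrays, since the ratios need one. With miR-1826, 6 of these had a share at least 1.5-fold higher at 7 dpi than in the uninjured heart. Of them 5 were nearer at 21 dpi and miR-21 was not. The families miR-122 and miR-486 were also higher at 7 dpi, at 6.26 ± 0.86 and 1.77 ± 0.82 on the log2 scale. In the uninjured heart they summed to only 2.31 ± 1.38 and 10.4 ± 4.75, close to the empty spots. The sizes of these 2 ratios thus cannot be read, and the normalized miR-122 difference was 1.64. Their sums were 0 at 21 dpi, so they were left out. Without miR-1826 the higher families were 8, of which miR-150, miR-155, miR-223 and miR-205 were nearer. The others, miR-21, miR-17/miR-20/miR-93/miR-106, miR-221/miR-222 and the fragment names, were not. At 21 dpi 0 of these 8 lay within 1.5-fold of the uninjured share. The miR-205 family, also among the 5 nearer with miR-1826, summed to 0.75 at 21 dpi, 14.7 at 7 dpi and 3.90 in the uninjured heart. Its log2 ratio to the uninjured heart at 21 dpi was -2.45 ± 4.39 without miR-1826, so whether it was nearer cannot be read. On the lower side, with miR-1826 in the sum, 11 families had a share at least 1.5-fold lower at 7 dpi, and 10 of them were nearer at 21 dpi. Among these were miR-15/miR-16 with 1.64% at 21 dpi, 1.06% at 7 dpi and 1.92% in the uninjured heart, and miR-128 with 0.111%, 0.0593% and 0.118% in the same order. The miR-1 family took 6.24% at 21 dpi, 5.02% at 7 dpi and 10.3% in the uninjured heart. The exception was miR-145, whose 0.116% at 21 dpi lay above both 0.0295% at 7 dpi and 0.0493% in the uninjured heart. At 21 dpi 9 of the 11 lay within 1.5-fold of the uninjured share. Without miR-1826, 2 families were lower at 7 dpi, of which miR-128 was nearer at 21 dpi and miR-1 was not.

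**Figure D5:**
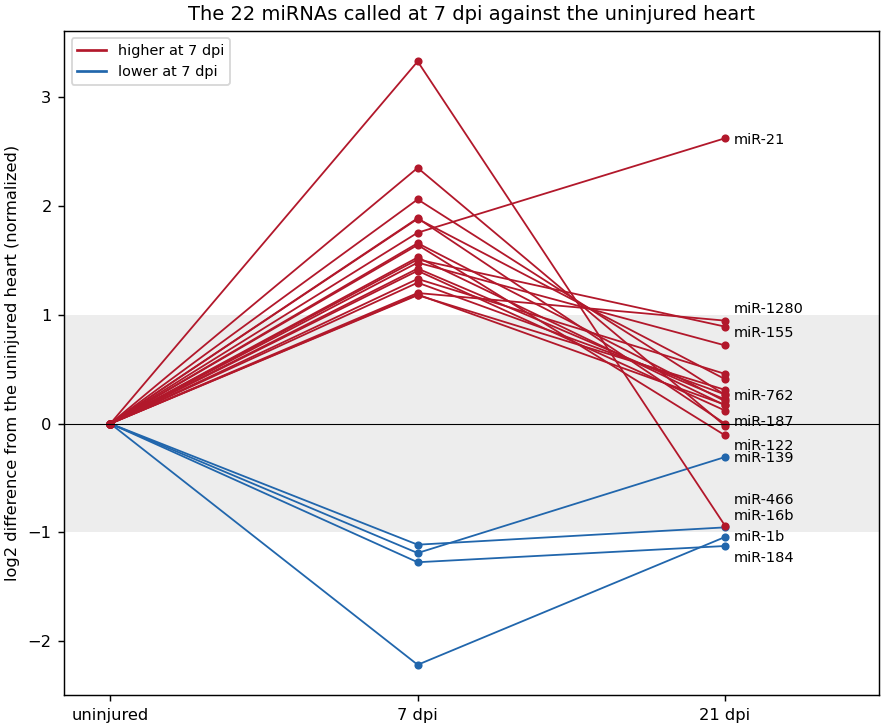
Normalized log2 difference from the resting, uninjured heart by time for the 18 miRNAs higher (red) and the 4 lower (blue) at 7 dpi, with the grey band within 2-fold. All lines but that of miR-21 end nearer to 0 at 21 dpi than at 7 dpi, miR-466 ends on the other side of 0, and miR-184 and miR-1b end just below the band.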

How the data were processed

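Per the file headers, the deposited values are linear median spot intensities from 1-channel (Cy3) arrays of 5022 spots, of which 4095 carried miRNA probes and 587 were empty. The design text mentions hybridization of paired samples, but a file holds a single channel and sample, so reading the values as 1-colour is an assumption. No source names the scanner software. A processed intensity per probe, deposited by the authors and scaled by them in an unstated way, was an alternative.

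The normexp model (limma 3.58.1, R 4.3.3, offset 50) was fitted to the deposited intensities of all spots, without local background, which the files do not hold. The log2 values of the 3 spots were averaged and quantile normalized over all miRNA probes of the 3 arrays. The probe with the highest mean signal stood for a name. A difference counted where it was at least 1 on the log2 scale, the name was detected on at least 1 array and spots did not overlap. For a name with detection at a single time, "at least" gives its fold over the detection limit of the other array or its own reading there, whichever was larger. Family sums used the mean intensity above the median empty spot, with negative means set to 0. Of 51 family lists, 6 had no detected member (miR-9, miR-10, miR-18, miR-124, miR-302/miR-367 and miR-430). Probes of near-identical members share signal, so a family sum counts some RNA more than once.

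Named miRNAs were those past the threshold between 21 and 7 dpi or between 7 dpi and uninjured, the brightest 10 at 21 dpi, up to 5 of the largest rank moves each way among the top 100, up to 10 names each way detected on 1 array only, and, per family, its 4 brightest detected members. The names miR-17, miR-20a and miR-93 fall outside this rule and were chosen after their values were seen. The members and lists were chosen with earlier results of these data known. The number of arrays limits the precision. Simulated data with known differences were used to check the calls. Alternatives covered normalization, background, offset, detection, spot summary, species collapse, the family sum and the authors' values.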

Additional observations from a re-analysis of the deposited data

Results flagged for a closer look

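Spike-in probes that carry mismatches entered no miRNA or family comparison. The 4 of them detected on all 3 arrays were brighter at 21 dpi than at 7 dpi and in the uninjured heart, a signal outside the miRNA measurement. PUC2MM read 4597 above the empty spots at 21 dpi, against 1438 at 7 dpi and 1066 in the uninjured heart. Ctr09-3M10 read 419 at 21 dpi, against 59.0 at 7 dpi and 74.0 in the uninjured heart. Ctr03-3M05 read 336 at 21 dpi, against 43.2 at 7 dpi and 26.4 in the uninjured heart, and Ctr09-3M05 read 53.0, 11.3 and 7.86 on the same arrays. Their part in the miRNA differences was not tested.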

How the results depend on the processing

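No paired analysis was possible because each group holds 1 sample. The numbers of miRNAs at least 2-fold higher and lower at 21 dpi than at 7 dpi, 6 and 17, were 100 and 4 with no normalization, 66 and 11 scaled to 5S rRNA, 1 and 63 scaled to the median of shared miRNAs, 9 and 44 scaled to spike-in probes, 1 and 18 with cyclic loess, 20 and 22 with the empty-spot median subtracted, 13 and 24 with offset 16, 10 and 30 in the authors' values, and 2 and 24 with quantiles over names with a fish or frog probe, an alternative chosen after seeing the data. Detection settings, the median of spots and every probe on its own kept both counts within 1.5 times. All 17 lower names were kept by the authors' values and the median of spots, and 2 and 3 of the 6 higher ones. The authors' values hold no separate spots, so every count from them used no rule on spot overlap or standard errors and is looser. Turned in sign were miR-1469 and miR-3196 with no normalization (0.086 and 0.35), the fragment names without miR-1826 (0.15, and 0.23 with the median of spots) and the miR-101 family in the authors' values (-0.10). The names nearer to the uninjured heart at 21 dpi, 21 of 22, were 81 of 83 with no normalization, 78 of 81 with 5S rRNA, 64 of 65 with shared miRNAs, 75 of 90 with spike-in probes, 37 of 39 with offset 16 and 43 of 46 in the authors' values. Families with higher and lower shares, 17 and 2, were 7 and 1 without miR-1826, 6 and 2 without it and with the median of spots (also chosen after seeing the data), and 6 and 7 in the authors' values. The 11 moves of at least 50 ranks were 17 with the median of spots and 43 when ranked among all names, most of which carry no signal. The cause of these shifts was not tested. Dim probes near the empty spots limit ranks past about the detected number and all bounds.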
